A study of Mus musculus with 2 samples.

Results

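The genes of the proteasome, the protease that degrades ubiquitin-tagged proteins, were examined in single-cell RNA-Seq of mouse islets. A gene was taken as a member when its symbol in the feature table began with Psm, carried a letter from a to g and ended in a number with or without a further letter. This rule found 50 of 27998 genes. They comprised 31 subunits of the standard 26S proteasome, the 5 genes of the immunoproteasome set (Psmb8, Psmb9, Psmb10, Psme1 and Psme2), 3 other activators or regulators (Psme3, Psme4 and Psmf1), 7 assembly chaperones, 2 tissue-restricted subunits (Psma8 and Psmb11), Psme2b, which is a near copy of Psme2, and Psmc3ip, which encodes a meiotic recombination factor and no subunit. The islets came from 8-week-old WT and ghrelin-knockout (GKO) littermates of the C57BL/6N strain fed standard chow. The GKO mice were homozygous for a germline deletion of the ghrelin gene, so ghrelin was missing from every tissue and not from the islet alone. Pancreata of 4 mice per genotype were pooled before live single cells were sorted, and 1 library was made per genotype, so a difference between WT and GKO has no replicate behind it and was not tested.

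The WT library held 7792 barcodes with 158067110 UMIs and the GKO library 7289 barcodes with 103511757 UMIs. Of these, 7100 and 6346 were kept, a barcode being dropped below 500 detected genes or above 10% of UMIs from mitochondrial genes. A barcode was called β, α, δ or γ when insulin (Ins1 and Ins2), Gcg, Sst or Ppy was its leading hormone with at least 10% of its UMIs, and nonendocrine otherwise. The WT library gave 2265 β, 1048 α, 1414 δ, 717 γ and 1656 nonendocrine barcodes, and the GKO library gave 872, 1397, 1003, 669 and 2405. Among the hormone classes Slc2a2, Nkx6-1 and Ucn3 were highest in β, Irx2 in α, and Hhex, Rbp4 and Ghsr in δ cells. Mafa did not exceed 10.4 CPM in β cells, and Lepr was all but absent. Ghrl, the targeted gene, had 43634 UMIs in the WT and 280 in the GKO library. Nearly all of the WT count lay in 6 nonendocrine barcodes with at least 1% of their UMIs from Ghrl. Without them the immunoproteasome share of the WT nonendocrine class, defined further on, was 53.3% in place of 53.1%. In the GKO library 276 of the 280 UMIs lay in nonendocrine barcodes, all of them in 1 barcode past the same limit. The libraries had 18 barcode sequences in common. Levels are given as UMI counts scaled to a total of 1000000 (CPM) after the 5 hormone genes were left out of the total. Intervals are exact at 95% and cover counting error only.

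The 20S core is a barrel of α rings and β rings, and only the β subunits encoded by Psmb5, Psmb6 and Psmb7 cut peptides. The 19S cap recognises and unfolds ubiquitin-tagged proteins and has a base of ATPases (Psmc genes) besides non-ATPase subunits (Psmd genes). Cells exposed to interferon replace the catalytic subunits with Psmb8, Psmb9 and Psmb10, which favours peptides that fit MHC class I molecules, and Psme1 and Psme2 form the PA28αβ cap that opens this core. In β cells the proteasome is known for clearing misfolded proinsulin that is exported from the endoplasmic reticulum.

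The start regions of a pair of standard catalytic genes, of the genes that replace them, and of Psme1 are shown. Psmb8, Psmb9 and Psme1 differed between classes as described below, whereas Psmb5 and Psmb6 differed far less. Psmb10, which also differed between classes, is not shown. Each sequence runs 5′ to 3′ on the gene's strand from 250 bases before to 50 bases after the RefSeq start in GRCm38.p6. Psmb5 is at chr14:54617946-54618245 (minus strand), Psmb8 at chr17:34197945-34198244 (plus strand), Psmb6 at chr11:70525107-70525406 (plus strand), Psmb9 at chr17:34187281-34187580 (minus strand) and Psme1 at chr14:55578244-55578543 (plus strand). Capitals mark TGACNNNGC in Psmb5 and Psmb6, TTCNNNGAA in Psmb8 and GAAA-NN-GAAA in Psme1. All 3 motifs were searched on both strands, none of these sequences held more than 1 of them, and Psmb9 held none.
Psmb5: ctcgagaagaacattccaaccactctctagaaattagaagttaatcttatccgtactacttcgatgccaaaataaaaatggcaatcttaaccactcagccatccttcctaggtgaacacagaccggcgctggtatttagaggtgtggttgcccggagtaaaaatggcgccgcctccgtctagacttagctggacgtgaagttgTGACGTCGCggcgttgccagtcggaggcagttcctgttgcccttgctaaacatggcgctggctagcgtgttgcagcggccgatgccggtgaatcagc
Psmb8: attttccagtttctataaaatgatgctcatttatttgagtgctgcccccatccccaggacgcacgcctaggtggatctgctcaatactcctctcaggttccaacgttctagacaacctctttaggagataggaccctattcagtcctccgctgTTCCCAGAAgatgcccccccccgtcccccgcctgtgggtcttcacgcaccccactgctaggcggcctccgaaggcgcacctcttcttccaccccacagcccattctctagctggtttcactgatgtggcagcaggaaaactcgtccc
Psmb6: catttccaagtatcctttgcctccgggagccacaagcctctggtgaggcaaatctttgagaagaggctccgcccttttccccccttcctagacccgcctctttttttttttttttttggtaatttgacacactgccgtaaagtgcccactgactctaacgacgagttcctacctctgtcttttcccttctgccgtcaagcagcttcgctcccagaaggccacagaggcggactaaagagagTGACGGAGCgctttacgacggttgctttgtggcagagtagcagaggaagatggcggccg
Psmb9: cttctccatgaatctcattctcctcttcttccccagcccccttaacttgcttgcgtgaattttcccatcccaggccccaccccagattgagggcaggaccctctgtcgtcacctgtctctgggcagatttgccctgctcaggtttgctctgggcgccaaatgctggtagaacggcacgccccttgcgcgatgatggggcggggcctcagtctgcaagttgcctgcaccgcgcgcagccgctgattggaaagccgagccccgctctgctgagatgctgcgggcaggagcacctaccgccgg
Psme1: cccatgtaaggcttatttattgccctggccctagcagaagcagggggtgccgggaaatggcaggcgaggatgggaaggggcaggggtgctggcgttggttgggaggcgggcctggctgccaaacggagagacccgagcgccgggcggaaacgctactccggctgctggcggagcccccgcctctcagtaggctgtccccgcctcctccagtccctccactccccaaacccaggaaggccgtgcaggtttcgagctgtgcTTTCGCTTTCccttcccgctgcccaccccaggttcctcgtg

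Of the 50 members, 42 had a promoter sequence in the reference table. The core of the antioxidant response element, TGACNNNGC, was found in 6 of these 42 (14.3%) and in 12.4% of all 32851 promoters. Psmb5, Psmb6, Psmc6, Psmd12, Psmd9 and Psme4 held it, and none of the 5 immunoproteasome genes did in this window. The motif TTCNNNGAA was in 3 of 42 (7.14%) against 8.3% of all promoters, and Psmb8 was the only immunoproteasome gene with it, 97 bases before its start. The interferon-response motif GAAA-NN-GAAA was in 5 of 42 (11.9%) against 3.44% of all promoters, and among the immunoproteasome genes it was in Psme1 alone, within the transcribed part. The others with it were the standard subunits Psmb3 and Psmd4 and the chaperones Psmd9 and Psmg4. For all 3 motifs, further promoters of the same gene were dropped for members and not from the set of all promoters. The starts of Psmb8 and Psmb9 lie 10.9 kb apart on chromosome 17, and those of Psme1 and Psme2 lie 12.6 kb apart on chromosome 14. Psmb7, Psmc3, Psmb2, Psmd7, Psmd3, Psmb1, Psma8 and Psmg2 were not matched.

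In the hormone classes the 31 standard subunits spanned 5.19-fold, from 59.6 CPM for the ATPase gene Psmc1 to 309 CPM for the α-ring gene Psma7, as the mean over the 4 classes and both libraries. The 3 members with the highest means were Psma7, Psmb1 (300.1 CPM) and Psmb4 (290.3 CPM), all in the 20S core. Medians were 169.7 CPM for the 7 α-ring genes, 223 CPM for the 7 β-ring genes, 91.4 CPM for the 6 ATPases and 106 CPM for the 11 non-ATPase subunits, so transcripts of the core were counted more often than those of the cap. Assembly chaperones had a median of 33.2 CPM. These are counts of transcript ends, 1 per molecule, and are not scaled by length. The lowest 3 members were Psme2b (1.90 CPM), Psma8, the α-ring subunit of the testis, and Psmb11, the catalytic subunit of the thymus. Psma8 had at most 3 UMIs in any hormone class of either library, and Psmb11 at most 3 UMIs in any class. Psmc3ip stood between 3.61 and 9.81 CPM in the hormone classes. Psma8, Psmb11, Psme2b and Psmc3ip had under 500 UMIs over both libraries in every class.

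Summed over the 31 standard subunits, the level was similar in the 4 hormone classes and in nonendocrine cells as a whole. In the WT library it was 4670 CPM in β, 4350 in α, 4575 in δ, 4526 in γ and 4532 in nonendocrine cells. In the GKO library it was 5026, 4702, 4794, 4833 and 4471 CPM in the same order. The split of nonendocrine cells was less even, with sums from 3090 CPM in macrophage-like and 4025 CPM in activated stellate-like to 5034 CPM in endothelial-like and 5123 CPM in Pln-led cells of the WT library. In the GKO library these sums were 3275, 4401, 5363 and 5230 CPM. The heat map of levels shows the 5 classes with the departures of single genes.

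**Figure D1:**
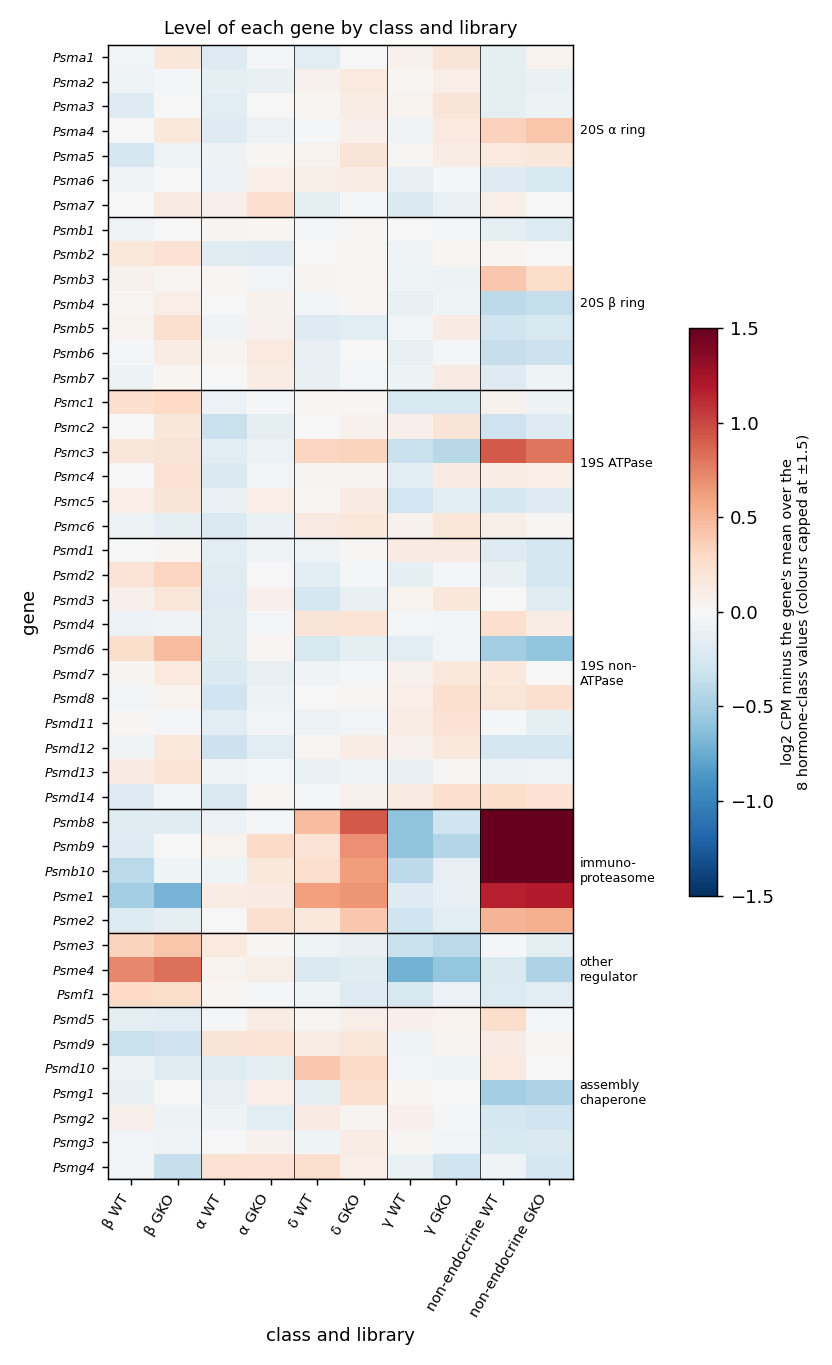
Level of 46 members (rows, grouped by role) in each class and library (columns), as log2 CPM minus the gene's mean over its 8 hormone-class values, with colours capped at 1.5. The nonendocrine columns stand out in Psmb8, Psmb9, Psmb10 and Psme1, the β columns in Psme4 and the δ columns in the immunoproteasome rows, whereas most core and cap rows are pale.

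The nonendocrine class was set against the mean of the 4 hormone classes, to ask which members separate barcodes without a leading hormone from the others. This class is a remainder, which also holds ductal-like, unnamed and Ghrl-rich barcodes and some rich in acinar genes. The fit used edgeR on 10 summed libraries (5 classes in 2 libraries) with the library as a block, so its p-values weigh a class difference against its change between the 2 libraries. Of 49 members tested, 22 were higher and 12 lower in nonendocrine cells at an adjusted p below 0.05 with the same direction in both libraries. Over all 15596 genes tested 41.4% were higher and 39.4% lower, so the member counts say little by themselves, and the sizes differ more. The split also moved with scaling: library sizes without TMM gave 14 higher and 19 lower, and DESeq2 gave 19 and 4. The 31 standard subunits had a median log2 difference of -0.00, as had all genes, with 11 higher and 9 lower.

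All 5 immunoproteasome genes were higher in nonendocrine cells. Psmb9 had a log2 difference of 2.86 (SE 0.06, adjusted p = 1.07e-10), Psmb8 of 2.77 (SE 0.07, adjusted p = 2.16e-10) and Psmb10 of 2.12 (SE 0.06, adjusted p = 6.41e-10). The PA28αβ genes differed less, by 1.26 for Psme1 and 0.61 for Psme2. Psme2b had a log2 difference of 2.28, on 140 and 193 UMIs, and reads shared with Psme2 could not be assigned to either gene, so its level is uncertain. Psma8 had the highest fitted difference, 4.14, but rested on 15 UMIs in WT and 31 in GKO nonendocrine cells, and the fitted size depends on the prior count. Among standard subunits Psmc3, an ATPase of the cap base, was the furthest from the rest: 143 and 131 CPM in nonendocrine cells of WT and GKO against 56.4 to 94.7 CPM in the hormone classes, a log2 difference of 0.94 (SE 0.05, adjusted p = 4.34e-08). On the lower side were Psmd6, a non-ATPase subunit of the cap (-0.47, adjusted p = 3.02e-05), Psmg1, a chaperone of α-ring assembly (-0.40, adjusted p = 0.00106), and the β-ring gene Psmb4 (-0.29, adjusted p = 0.00024). These 3 and the 5 immunoproteasome genes kept their direction and an adjusted p below 0.05 in all 5 alternative fits.

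The immunoproteasome catalytic genes differed far more between classes than their standard counterparts. Psmb8 stood at 40.4 CPM in β cells of both libraries, at 43.0 and 45.1 CPM in α cells of WT and GKO, at 63.1 and 86.7 CPM in δ cells, at 30.2 and 37.2 CPM in γ cells and at 283 and 309 CPM in nonendocrine cells. Psmb5, whose place in the β ring Psmb8 takes, stood at 230.2 and 261 CPM in β cells, at 214 and 231 CPM in α cells, at 215 and 241 CPM in γ cells, at 194 and 199 CPM in δ cells and at 181 and 187 CPM in nonendocrine cells. Psmb9 ranged from 12.8 to 31.4 CPM over the hormone classes and libraries and was at 129 and 137 CPM in nonendocrine cells, and its counterpart Psmb6 ranged from 264 to 319.7 CPM and was at 227 and 230.2 CPM there. Psmb10 ranged from 27.2 to 55.6 CPM over the hormone classes, with 147 CPM in nonendocrine cells of both libraries, while Psmb7 lay between 85.1 and 106 CPM in all 5 classes. The nonendocrine values of all 3 immunoproteasome genes lay above their ranges in the hormone classes.

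The share of Psmb8, Psmb9 and Psmb10 in the UMIs of the 3 catalytic pairs sums this up. In the WT library it was 10.9% in γ (interval 10.2 to 11.7%), 12.3% in β (11.9 to 12.7%), 13.8% in α (13.0 to 14.6%), 18.99% in δ (18.2 to 19.8%) and 53.1% in nonendocrine cells (52.4 to 53.8%). The intervals of neighbours in this order did not overlap, but at a hormone limit of 20% β cells had 12.04% and α cells 12.3%, closer than the width of either interval. In the GKO library the order was the same, with 11.8%, 12.3%, 14.2%, 23.0% and 53.8%, and the intervals of γ (11.1 to 12.6%) and β cells (11.7 to 13.0%) overlapped. The transcript shares differed between the pairs: in WT β cells Psmb10 made up 22.7% of its pair, Psmb8 14.9% and Psmb9 5.7%. Psmb10 had 937 of 4128 UMIs of its pair and Psmb8 1395 of 9338, so this order also depends on the standard genes. Exchange of the subunits themselves was not measured.

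The nonendocrine barcodes were split by cell type markers, and a class was kept where each library held at least 50 barcodes. This gave 577 endothelial-like barcodes in WT and 433 in GKO, 261 and 572 activated stellate-like, 200 and 450 macrophage-like and 68 and 90 ductal-like barcodes. A further 189 and 373 barcodes passed on quiescent stellate markers, but the genes that set them apart most were led by Pln and included the muscle genes Actg2 and Casq2, so they are called the Pln-led class. The immunoproteasome share was 65.0% in WT and 67.4% in GKO macrophage-like cells, 59.2% and 66.7% in endothelial-like cells, 37.0% and 29.0% in ductal-like cells, 35.2% and 38.7% in activated stellate-like cells and 20.8% and 30.3% in the Pln-led class. The lowest of these, in the WT Pln-led class (17.9 to 23.8%), overlapped the δ-cell values.

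**Figure D2:**
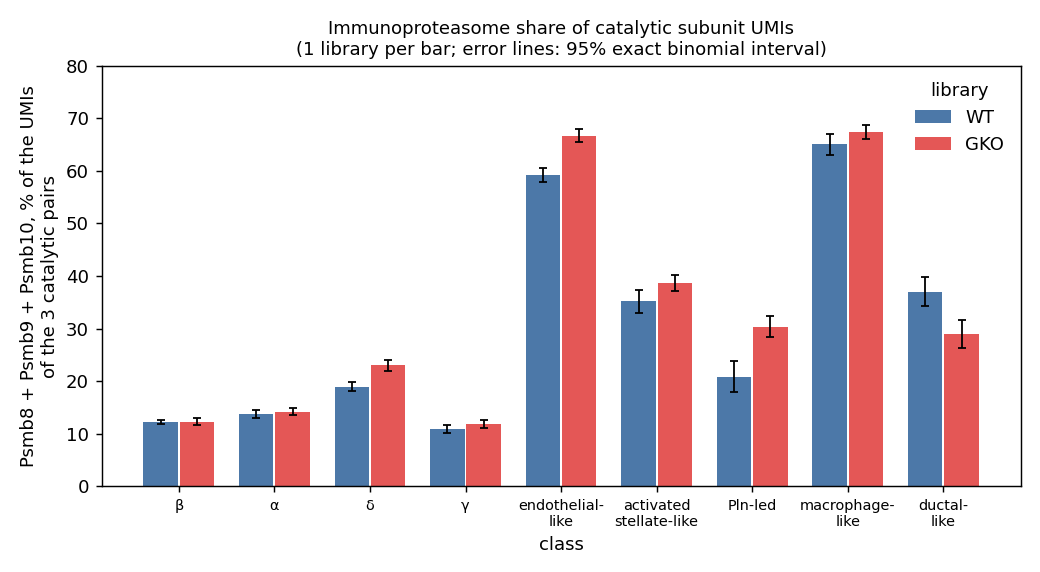
Immunoproteasome share (UMIs of Psmb8, Psmb9 and Psmb10 in percent of those of all 3 catalytic pairs, y axis) by class (x axis) in the WT and GKO library, with 95% exact binomial intervals. δ cells stand above the other hormone classes, and the macrophage-like and endothelial-like classes are above 59% in both libraries.

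Against the mean of the hormone classes, Psmb8 was higher by a log2 difference of 3.77 in macrophage-like cells (adjusted p = 4.74e-12), 3.27 in endothelial-like cells (adjusted p = 1.76e-11), 1.81 in activated stellate-like cells (adjusted p = 6.17e-08), 1.44 in ductal-like cells (adjusted p = 4.23e-06) and 1.07 in the Pln-led class (adjusted p = 0.000103). Under a stricter marker gate the last of these was 0.43 and no longer passed (adjusted p = 0.0746). Psme1 followed the same order at the top of the fit, with 2.05 in macrophage-like and 1.74 in endothelial-like cells. In the Pln-led class Psme1 missed the threshold (0.17, adjusted p = 0.171). Psme2 passed in macrophage-like cells (1.15, adjusted p = 8.91e-08) and endothelial-like cells (0.81, adjusted p = 3.1e-06) and not in ductal-like cells (0.07, adjusted p = 0.62). The fit scaled with TMM, and CPM without TMM put endothelial-like cells above macrophage-like cells. Psme1 was at 320 and 355 CPM in macrophage-like and 409 and 463 CPM in endothelial-like cells of WT and GKO. In the same order Psme2 was at 160, 208, 201 and 266 CPM and Psmb8 at 340, 417, 345 and 521 CPM. These classes were not fitted without TMM. Of the standard catalytic genes, Psmb6 was lower in endothelial-like cells (-0.32, adjusted p = 0.00201) and Psmb5 in macrophage-like cells (-0.25, adjusted p = 0.0175). By CPM without TMM the gap of Psmb5 was wider than the fitted -0.25. It was at 105 and 119 CPM in macrophage-like cells of WT and GKO, against 194 to 261 CPM in the hormone classes.

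**Figure D3:**
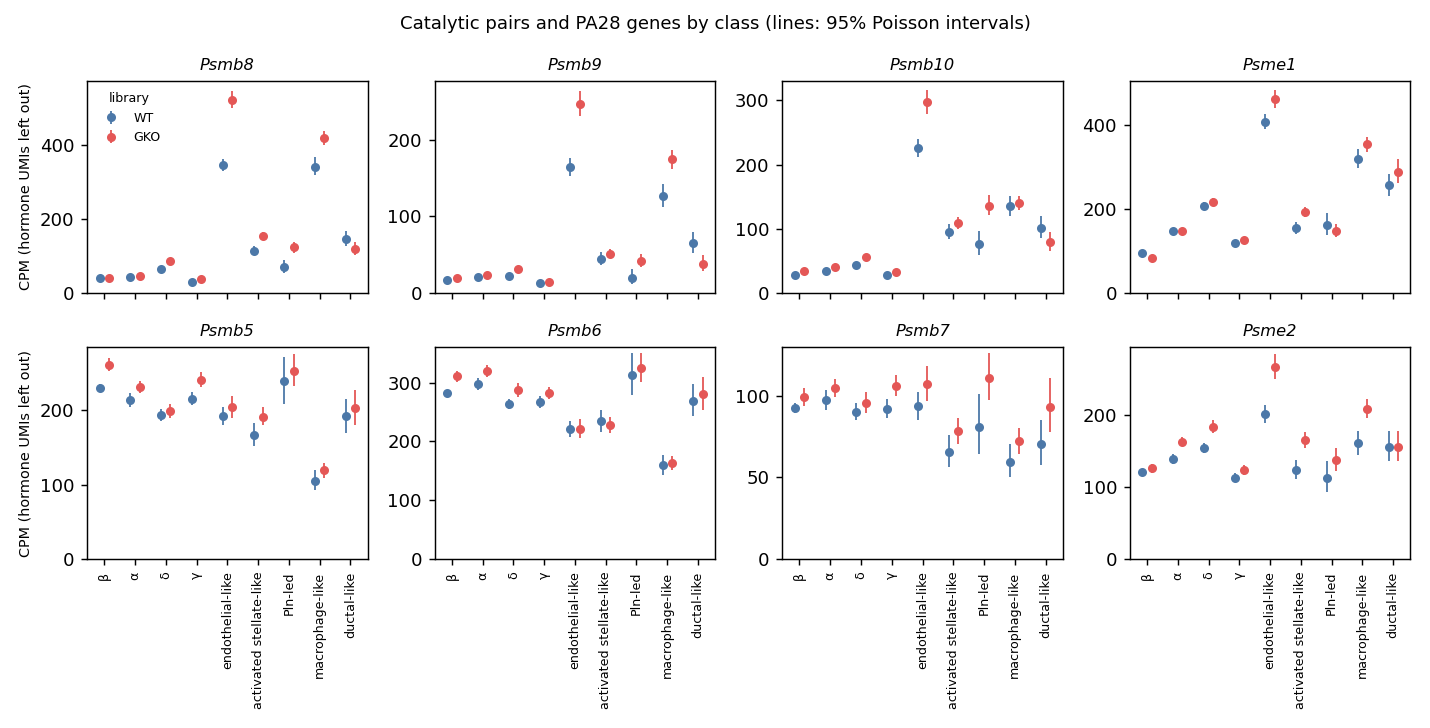
CPM (y axis, starting at 0, hormone UMIs left out) of the 3 catalytic pairs and of Psme1 and Psme2 by class (x axis) in each library, with 95% Poisson intervals. Psmb8 reaches 345 and 521 CPM in endothelial-like cells of WT and GKO and stays at 86.7 CPM or less in the hormone classes, while Psmb5, Psmb6 and Psmb7 differ far less between classes.

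UMIs of genes from other cells can reach a hormone-class barcode as free RNA. In WT β cells, 14 endothelial and macrophage markers were at a median of 2.80% of their nonendocrine CPM, with 25.7% for C1qa and at most 4.95% for the other 13. Psmb8 was at 14.3%, Psmb9 at 13.2% and Psmb10 at 18.5% in the same cells, and Psme1 was at 31.4%. In GKO β cells the marker median was 4.22% and Psmb8 was at 13.1%. The 3 immunoproteasome catalytic genes thus lay above 13 of the 14 markers and below C1qa in WT β cells, and what part of their UMIs was free RNA was not tested.

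β cells were then set against the mean of α, δ and γ cells. Of 49 members, 11 were higher and 12 lower in β cells, beside 26.4% higher and 22.8% lower among all 15596 genes. DESeq2 gave 11 higher and 7 lower, and library sizes without TMM 11 and 8. Psme4, which encodes the PA200 cap, had the largest difference. It stood at 80.7 CPM in WT and 87.0 CPM in GKO β cells, at 50.6 and 52.0 CPM in α, 42.2 and 43.1 CPM in δ and 30.0 and 32.8 CPM in γ cells, so the β values lay above all others (log2 difference 1.01, SE 0.07, adjusted p = 1.74e-06). Psme3, the PA28γ cap of the nucleus, was at 30.7 and 32.3 CPM in β cells and between 18.3 and 26.8 CPM in the other hormone classes (0.47, adjusted p = 0.000319). Psmf1, the proteasome inhibitor PI31, was higher by 0.36 (adjusted p = 0.00159). The cap subunit Psmd6 was at 144 and 165 CPM in β cells and between 102 and 123 CPM in the other hormone classes (0.46, adjusted p = 9.46e-05). All 3 regulators outside the immunoproteasome set were therefore higher in β cells.

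On the lower side Psme1 was at 95.9 CPM in WT and 84.0 CPM in GKO β cells, against 119 to 216 CPM in the other hormone classes (-0.82, SE 0.06, adjusted p = 4.49e-06). Psmd9, an assembly chaperone of the cap base, was lower by 0.45 on the log2 scale (adjusted p = 0.000163) and Psmb10 was lower by 0.34 (adjusted p = 0.00475). Psme2 (-0.25, adjusted p = 0.00488) and Psmb8 (-0.25, adjusted p = 0.0321) were also lower, though Psmb8 missed the threshold in DESeq2 (adjusted p = 0.0668), and Psmb9 was not called (-0.15, adjusted p = 0.173). The contrast is with a mean, in which δ cells had the highest level of each immunoproteasome gene. Psmb8 was at 63.1 and 86.7 CPM in δ cells of WT and GKO, and at 43.0 and 45.1 CPM in α cells, close to β cells. The same δ values enter the δ contrast described below. Against γ cells alone, β cells were not lower in Psmb8. Psmb8 was at 30.2 CPM in WT and 37.2 CPM in GKO γ cells, below its 40.4 CPM in β cells of both libraries. Psme2 was at 112 and 123 CPM in γ and 120 and 125 CPM in β cells, and Psmb10 at 27.3 and 33.1 CPM in γ and 27.2 and 34.3 CPM in β cells. By role, 4 of 7 chaperones and 4 of 5 immunoproteasome genes were lower in β cells than in the mean of α, δ and γ cells. None of these 12 was higher. Of the 31 standard subunits 8 were higher and 4 lower. Among all genes tested 26.4% were higher and 22.8% lower, so the standard subunits were called higher about as often as genes in general. The counts on the lower side depend on the fit: the chaperone Psmd5 kept its call in 1 of 5 alternatives and Psmd10 in 3, and the standard subunits lower numbered 2 with DESeq2 and 1 without TMM or without the low-count filter.

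Within β cells the immunoproteasome share differed with insulin content. In the WT library it was 24.2% in the 53 barcodes with 10 to 25% of their UMIs from insulin, 14.9% in the 942 with 25 to 60% and 8.98% in the 1270 above 60%. In the GKO library it was 19.7%, 15.7% and 7.90% in 37, 388 and 447 barcodes. The summed level of the standard subunits did not follow, with 4672, 4651 and 4687 CPM in WT and 4940, 4897 and 5167 CPM in GKO. Median UMIs outside the hormones were 14038, 15069 and 13007.5 per barcode in the WT groups and 20512, 14929 and 13440 in the GKO groups. Whether droplets with 2 cells take part in the low-insulin group was not tested.

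δ cells were compared with α, β and γ cells after the levels had been seen. Of 49 members tested 7 were higher and 17 lower, beside 20.0% and 18.3% of all genes, and of the 31 standard subunits 1 was higher and 14 lower. Psmb8 was higher by a log2 difference of 0.77 (SE 0.08, adjusted p = 7.09e-05), Psme1 by 0.70 (adjusted p = 1.24e-05), Psmb10 and Psmb9 by 0.45 each (adjusted p = 0.0013 and 0.00267) and Psme2 by 0.23 (adjusted p = 0.0098), and all 5 kept an adjusted p below 0.05 in the 5 alternative fits. The 3 largest differences on the lower side were those of Psme4 (-0.41, adjusted p = 0.0021) and of the cap subunits Psmd3 (-0.40, adjusted p = 0.00254) and Psmd6 (-0.39, adjusted p = 0.000646). Of the standard catalytic genes, Psmb5 was lower by 0.39 (adjusted p = 0.000352), Psmb6 by 0.24 (adjusted p = 0.00478) and Psmb7 by 0.23 (adjusted p = 0.00527). Without TMM, which moved the median of all genes from -0.01 to 0.14, the differences of the catalytic genes were -0.24, -0.09 and -0.08, while Psmb6 and Psmb7 were no longer called. The counts turned with that scaling to 14 members higher and 4 lower, and the median of the standard subunits moved from -0.13 to 0.02.

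The GKO library was next compared with the WT library class by class, to ask whether loss of ghrelin goes with another level of proteasome transcripts. The standard subunits were slightly higher in GKO in every hormone class. In β cells 28 of 31 had a ratio above 1, beside 54.0% of all genes with at least 500 UMIs, with a median log2 ratio of 0.10 beside 0.01 for those 8507 genes, and the counting interval lay above 0 for 20 and below 0 for none. The summed level differed by 0.11 (interval 0.09 to 0.12) in β, 0.11 (0.09 to 0.13) in α, 0.07 (0.05 to 0.09) in δ and 0.09 (0.08 to 0.11) in γ cells. The medians of the 31 were 0.11 in α, 0.06 in δ and 0.12 in γ cells, beside 0.06, 0.03 and 0.04 for all genes tested there. Above 1 were 28 in α, 30 in δ and 27 in γ cells, beside 65.4%, 57.8% and 59.97% of all genes, and the interval lay above 0 for 16, 7 and 12 of them and below 0 for none. In nonendocrine cells the median was -0.03, with 13 above 0 and 18 below, beside 0.00 for all genes. The interval lay above 0 for 4 and below 0 for 9. Over all deposited barcodes the nonendocrine median was 0.00, beside 0.03 for all genes. At a hormone limit of 20% it was 0.01, beside -0.01, so its sign was not stable. Intervals were not counted in this way over all genes, and they narrow with the number of UMIs. The interval counts in these classes therefore have no background beside them and say little by themselves. In the named classes within it the summed level was higher in GKO by 0.09 (interval 0.06 to 0.12) in endothelial-like, 0.13 (0.10 to 0.16) in activated stellate-like, 0.08 (0.04 to 0.13) in macrophage-like and 0.06 (0.01 to 0.11) in ductal-like cells, with 0.03 (-0.02 to 0.08) in the Pln-led class. All genes were shifted too, with medians of 0.03, 0.08, 0.07, 0.05 and -0.004 in this order. The medians of the standard subunits with at least 500 UMIs (31, 29, 18, 9 and 14 of them) were 0.08, 0.11, 0.10, 0.01 and 0.05. In ductal-like cells their median was thus below that of all genes. In endothelial-like cells 25 of 31 had a ratio above 1, beside 56.2% of all genes. With TMM the medians were 0.09 in β, 0.07 in α, 0.03 in δ and 0.06 in γ cells.

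These are small sizes. A member was counted as different when it passed 1.2-fold among those with at least 500 UMIs in both libraries together. In β cells 1 of 46 was higher and 1 lower, beside 5.13% and 6.01% of all genes. In α cells 1 of 46 was higher and none lower, beside 8.12% and 4.45%. In δ cells 4 of 45 were higher and none lower, beside 5.28% and 5.68%. In γ cells 3 of 44 were higher and none lower, beside 5.31% and 4.59%. In nonendocrine cells, whose cell types differ in share between the libraries, none of 46 was higher and 1 lower, beside 17.0% and 13.6%. With so few members past the fold, the counts in the hormone classes say little by themselves beside these shares. At a minimum of 2000 UMIs, where fewer members are counted, none passed on the higher side in these classes. At a hormone limit of 20%, 1 did in δ cells, where 2494 genes reached 500 UMIs in place of 6019. The ratios of Psmb8, Psmb9, Psmb10 and Psmg1 at that limit were 0.39, 0.61, 0.51 and 0.44 on the log2 scale. With TMM no member passed in α or γ cells.

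**Figure D4:**
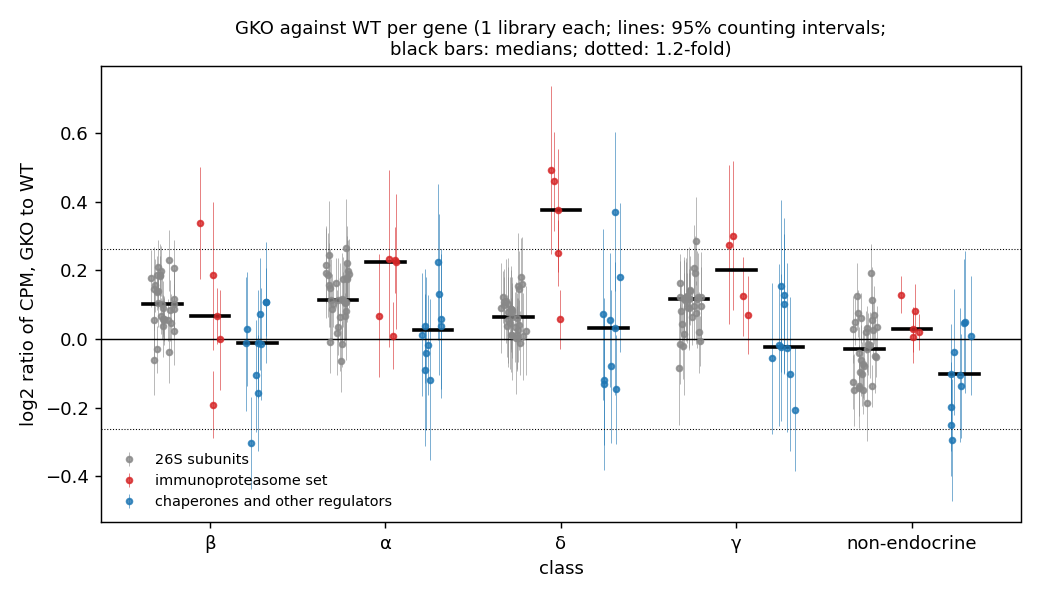
Log2 ratio of CPM in GKO to WT (y axis) for each member with at least 500 UMIs, by class (x axis) and group, with 95% counting intervals. Black bars are medians and dotted lines 1.2-fold. The standard subunits lie mostly just above 0 in the 4 hormone classes, with medians of 0.10, 0.11, 0.06 and 0.12, and the immunoproteasome genes of δ cells reach 0.49.

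In δ cells, which carry the ghrelin receptor gene Ghsr, the 4 members past 1.2-fold were Psmb9, Psmb8, Psmb10 and the chaperone Psmg1. Psmb8 had 819 UMIs in WT and 743 in GKO δ cells, or 63.1 and 86.7 CPM, a log2 ratio of 0.46 (interval 0.31 to 0.60). Psmb9 had 290 and 269 UMIs and a ratio of 0.49 (0.25 to 0.74), and Psmb10 had 556 and 476 UMIs and a ratio of 0.38 (0.20 to 0.55). Psme2 followed with 0.25 (0.16 to 0.35), and Psme1 had 0.06 (-0.03 to 0.14). Over 7 alternatives of scaling and barcode choice the ratios of Psmb8 stayed between 0.39 and 0.47, and those of Psmb9 between 0.46 and 0.61. The share of immunoproteasome UMIs was 18.99% in WT and 23.0% in GKO δ cells. In the same δ barcodes all 7 macrophage markers were higher in GKO, with a sum of 149.8 CPM in WT and 207 CPM in GKO that was mostly C1qa (135 and 175 CPM), while Csf1r, Cx3cr1, Adgre1 and Cd86 were each below 2 CPM. All 7 endothelial markers were lower, with sums of 144 and 75.2 CPM. In β cells the macrophage sum was also higher in GKO (239 and 340.4 CPM), where Psmb8 was at 40.4 CPM in both libraries. The part of these cells' RNA in the δ ratios was not tested.

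In γ cells Psmb8 (0.30, interval 0.08 to 0.52), Psmb10 (0.27, 0.04 to 0.51) and the ATPase gene Psmc4 (0.29, 0.16 to 0.41) passed 1.2-fold. In β cells Psmb10 was higher, at 27.2 CPM in the WT and 34.3 CPM in the GKO library (0.34, 0.17 to 0.50), and Psmc4 came next (0.23), while the interval of Psmb8 spanned 0 (-0.15 to 0.14) and Psme1 was lower (-0.19, -0.29 to -0.09). In α cells the largest ratios were those of the cap subunits Psmd3 (0.26, 0.12 to 0.41) and Psmd14 (0.24, 0.09 to 0.40), and Psme3 (-0.12) and the chaperone gene Psmg2 (-0.09) were lowest. In nonendocrine cells Psma1 (0.19) and Psmb8 (0.13) were highest, and the chaperone gene Psmd5 (-0.30, -0.47 to -0.12) and Psme4 (-0.25, -0.40 to -0.10) were lowest.

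Psmg4, an assembly chaperone, was the lowest member in 3 hormone classes, with log2 ratios of -0.30 in β, -0.15 in δ and -0.21 in γ cells, and was at -0.02 in α cells. Its longest annotated transcript has 555 bases. Genes with transcripts of up to 600 bases had median ratios of -0.25 in β, -0.24 in α, -0.20 in δ, -0.24 in γ and -0.26 in nonendocrine cells, while genes of over 600 and up to 1500 bases had medians between 0.02 and 0.05. The part of transcript length in the ratio of Psmg4 was not tested. No standard subunit falls in the shortest group, and in β cells the 14 of up to 1500 bases had a median of 0.14 and the 17 longer ones 0.08.

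The split of nonendocrine cells gave larger ratios than the class as a whole. In the endothelial-like class, of 36 members with at least 500 UMIs, 7 were past 1.2-fold higher in GKO and none lower, beside 9.96% and 7.65% of all 2943 genes. Of the 7, 3 were the α-ring genes Psma1, Psma2 and Psma4. Psmb8 was at 345 CPM in WT and 521 CPM in GKO (log2 ratio 0.59, interval 0.50 to 0.69), Psmb9 at 164 and 247 CPM (0.59, 0.45 to 0.73), Psmb10 at 225 and 297 CPM (0.40, 0.27 to 0.52) and Psme2 at 201 and 266 CPM (0.41, 0.28 to 0.54). In macrophage-like cells Psmb9 (0.46), Psme2 (0.37) and Psmb8 (0.29) were also higher, whereas Psmb10 was not (0.05, -0.15 to 0.25). There 6 of 23 members passed 1.2-fold, with the standard subunits Psma1, Psma4 and Psmc5 among them, and α-ring genes reached 0.37. In activated stellate-like cells 7 of 33 passed, with the standard subunits Psma1, Psma5, Psmc2 and Psmc4 among them, and cap ATPase genes reached 0.45. The share of all genes was not counted in these classes, so these member counts have no background beside them and say little by themselves. The immunoproteasome genes with at least 500 UMIs had median ratios of 0.29 in macrophage-like and 0.36 in activated stellate-like cells. Those of the standard subunits were 0.10 and 0.11. Whether the rises are particular to the immunoproteasome set was not tested. In activated stellate-like cells Psmb8 (0.43) and Psme2 (0.42) were higher, and in the Pln-led class Psmb8 had 67 and 261 UMIs and a ratio of 0.81 (0.42 to 1.22). Other cells' markers moved with it in the Pln-led class, with summed activated stellate markers at 1394 CPM in WT and 2841 CPM in GKO and B cell markers at 2.08 and 69.4 CPM, and their part was not tested. A stricter marker gate brought the immunoproteasome share of that class to 19.9% in WT and 21.3% in GKO. In ductal-like cells the direction was the opposite for the catalytic genes, with 95 and 54 UMIs of Psmb9 and a ratio of -0.77 (-1.28 to -0.27). There the summed ductal markers were at 7993 and 13824 CPM and the activated stellate markers at 149 and 97.0 CPM, and their part was not tested either.

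The genes that pass peptides on to class I molecules were followed as a list of 10, with the peptide transporter, the class I chains and their regulators. Of these, 9 were higher in nonendocrine than in hormone-class cells, beside 41.4% of all genes, from 1.24 for the tapasin gene Tapbp to 4.59 for B2m, the light chain of class I molecules. In GKO endothelial-like cells 7 of the 8 with at least 500 UMIs were past 1.2-fold higher, beside 9.96% of all genes, with 0.96 (interval 0.72 to 1.19) for the peptide transporter gene Tap1, 0.49 for H2-K1 and 0.38 for B2m. In δ cells 2 of 6 were, B2m (0.32) and the peptide trimming enzyme gene Erap1 (0.30), in β cells 1 of 8 (B2m, 0.29) and in γ cells 1 of 5 (B2m, 0.33), beside 5.28%, 5.13% and 5.31% of all genes. None was in α cells, nonendocrine cells as a whole, macrophage-like cells or activated stellate-like cells, and in the last of these Irf1 was lower (-0.39, interval -0.59 to -0.20). In the Pln-led class B2m and H2-K1 had ratios of 0.89 and 0.84, and in ductal-like cells B2m had -0.19 while Irf1, a transcription factor of the interferon response, had 209 and 643 UMIs and a ratio of 1.67 (1.44 to 1.90).

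A list of 25 partners of the proteasome, with ubiquitin genes, shuttles and the transcription factors of subunit genes, had 9 members higher and 10 lower in nonendocrine cells, beside 41.4% and 39.4% of all genes. The stress-induced cofactors Zfand5 and Zfand2a were higher by 1.63 and 2.05, and the shuttle Ubqln2 was lower (-1.37). Nfe2l2, the factor of the antioxidant response, was higher by 2.48. In β cells 10 were higher and 7 lower than in the other hormone classes, beside 26.4% and 22.8% of all genes, and here Nfe2l1, the factor that restores subunit transcription when the proteasome is inhibited, was higher by 0.52 (adjusted p = 0.000105), as were its activating protease Ddi2 by 0.78 and the ubiquitin-activating enzyme Uba1 by 0.67. Between genotypes few of the 25 passed 1.2-fold: 2 of 24 in β, 2 of 22 in α, 1 of 22 in δ, none of 21 in γ and 1 of 24 in nonendocrine cells. Counted in both directions, these are smaller shares than those of all genes past that fold in the same classes. Sem1, a small subunit of the cap whose symbol lies outside the rule, was lower in GKO in the hormone classes, with -0.29 in β, -0.28 in α, -0.29 in δ and -0.25 in γ cells, whereas the lowest ratio of any of the 31 standard subunits in these classes was -0.08.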

How the data were processed

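Islets of 4 mice per genotype were pooled, dispersed, sorted and sequenced with the 10x Genomics Chromium 3′ kit. The deposited files are UMI counts per gene and barcode, made by the authors with Cell Ranger on mm10 per the labels. The study also removed background RNA and doublets by its own steps; those values were not used here. Cell Ranger leaves out reads that match several genes, so near copies are uncertain, and free RNA is still in the counts. No doublet caller was run; barcodes with 2 hormones and the deepest 5% were left out as alternatives instead.

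Barcodes below 500 detected genes or above 10% of UMIs from mitochondrial genes were dropped, and the others were grouped by leading hormone (at least 10% of UMIs) and summed by class and library. A named nonendocrine class needed at least 3 markers with 2 or more UMIs and 2 more than any other list. CPM used UMIs without the 5 hormone genes. Ratios of GKO to WT carry exact intervals from binomial counts and no test, and 1.2-fold among genes with at least 500 UMIs counted as different. Class contrasts used the edgeR 4.0.16 quasi-likelihood test in R 4.3.3 with TMM, filterByExpr and the library as a block, Benjamini-Hochberg adjusted over all genes. The adjusted p-values measure spread between 2 libraries and not between mice. DESeq2 1.42.0 was an alternative. Scripts were tested on simulated data. Sums and figures used Python 3.11.15 with numpy 2.4.6, pandas 2.3.3, scipy 1.17.1 and matplotlib 3.10.9.

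Values are given for the catalytic pairs, Psme1 to Psme4 and Psmf1, the 2 largest ratios each way per class, the 3 largest called differences each way per contrast, the 3 highest and 3 lowest members, and members under 500 UMIs. The δ contrast and other genes named in the split nonendocrine classes were chosen after values had been seen. The members and lists were chosen with earlier results of these data known. Other settings tried were CPM over all UMIs, TMM, all deposited barcodes, a hormone limit of 20%, 200 or 2000 UMIs, equal weight per barcode, no low-count filter and a stricter marker gate. Some genes of the marker and partner lists are not reported here by name.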

Additional observations from a re-analysis of the deposited data

Results flagged for a closer look

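The immunoproteasome share (UMIs of Psmb8, Psmb9 and Psmb10 in percent of the 3 catalytic pairs) moved in opposite directions between the libraries in different classes, with counting intervals of WT and GKO that did not overlap. GKO minus WT was 4.0089 percentage points in δ cells, 7.4513 in endothelial-like cells, 9.5746 in the Pln-led class and -7.9549 in ductal-like cells. With 1 library per genotype, neither these differences nor the difference between classes was tested. Summed markers of other cells moved too: activated stellate markers were at 1394 CPM in WT and 2841 CPM in GKO in the Pln-led class, ductal markers at 7993 and 13824 CPM in ductal-like cells, and macrophage markers at 149.8 and 207 CPM in δ cells. Their part was not tested. The Pln-led value depends on the marker gate: a stricter gate gave 19.9% in WT and 21.3% in GKO, while it gave 59.5% and 66.9% in endothelial-like and 35.5% and 29.1% in ductal-like cells.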

How the results depend on the processing

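Of 209 values recomputed, 171 moved by less than their spread or by less than 1.5 times for counts. All 45 recomputed medians of the GKO-to-WT ratio of the standard subunits were among them. Their spread was taken as the median half-width of a single subunit's interval, 0.08 in β and 0.11 in α, δ and γ cells. That is about the size of the medians or larger, so this count says little. The recomputed medians ran from 0.07 to 0.18 in β, 0.07 to 0.15 in α, 0.03 to 0.07 in δ and 0.06 to 0.14 in γ cells. In nonendocrine cells they ran from -0.03 to 0.01. Members past 1.2-fold higher in GKO numbered 5 in β and 0 in α cells with CPM over all UMIs, 0 in α and γ cells with TMM, and 0 in β, α, δ and γ cells at 2000 UMIs, where fewer members are counted. In α cells they numbered 2 without two-hormone barcodes, with equal weights or without the deepest 5%. At a hormone limit of 20%, they numbered 4 in α, 1 in δ and 2 in nonendocrine cells. Members lower numbered 0 in β cells with CPM over all UMIs, equal weights or without the deepest 5%, and in nonendocrine cells 0 at a limit of 20% or at 2000 UMIs and 2 with equal weights or without the deepest 5%.

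The immunoproteasome share at a limit of 20% was 12.3% in WT and 13.1% in GKO α cells, 18.2% in WT δ cells, 9.53% and 10.9% in γ cells and 41.9% and 45.3% in nonendocrine cells, a class that then also holds cells with 10 to 20% of a hormone. Without the deepest 5% it was 52.3% in WT nonendocrine cells, and over all deposited barcodes 53.0% in GKO nonendocrine cells. The stricter marker gate gave 30.1% in WT activated stellate-like cells and 21.3% in the GKO Pln-led class. Members called lower in nonendocrine cells numbered 4 with DESeq2, and without TMM 14 were higher and 19 lower. Members lower in β cells numbered 7 with DESeq2 and 7 without the low-count filter, and the median of the standard subunits was 0.0976 in the GKO library alone. Where no cause is given, it was not tested.

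No paired analysis was possible because each genotype has 1 library. Free RNA, droplets with 2 cells and the mix of cell types in the nonendocrine class limit the low levels, and the pooling of mice leaves no spread between animals.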
